A study of Mus musculus with 672 samples.

Results

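The genes described here encode the proteins of the cytosolic ribosome. Members were chosen by symbol alone, as the genes named Rpl or Rps with a number together with Rplp0, Rplp1, Rplp2 and Rpsa, leaving out pseudogene symbols ending in -ps and the Rps6k kinases, and 92 of 26127 genes in the table met this rule. They comprised 77 canonical proteins (43 of the large subunit, 3 of its stalk and 31 of the small subunit), 9 paralogs, 5 retrocopies or duplicates and Rps19bp1, which carries a ribosomal name but encodes a partner of the small-subunit protein Rps19. Fau, which encodes a ribosomal protein fused to a ubiquitin-like sequence, fell outside the symbol rule.

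Gene expression was measured by Smart-seq2, which amplifies polyadenylated RNA of single sorted cells over the whole transcript, along the conversion of female mouse embryonic fibroblasts (MEFs) into induced pluripotent stem cells (iPSCs). The MEFs came from a cross between Mus and Cast mice, carried X-GFP on the Mus X chromosome and received lentiviruses for the factors Oct4, Sox2, Klf4 and Myc under doxycycline control (tetO-FUW-OSKM) and for the FUW-M2rtTA activator. Reprogramming took place with doxycycline in embryonic stem cell medium with LIF and ascorbic acid. Each of the 7 groups was 1 plate of 96 labelled cells, for which the labels give neither cultures nor animals. At day 0 the plate held MEFs with an inactive Mus X (Xi-Mus; 86 cells in the table). The reprogramming intermediates sorted for the surface carbohydrate SSEA1, a sort the labels call FUT4+, were Xi-Mus cells on day 8 (82 cells), day 9 (83 cells) and day 10 (80 cells), Xi-Cast cells on day 12, in which the Cast X was inactive at the start (66 cells), and Xi-Mus cells on day 12 (80 cells). The iPSCs (90 cells), also labelled Xi-Mus for the X inactive at the start, came from picked colonies after doxycycline and ascorbic acid had been withdrawn. The sort means that a plate stands for the SSEA1-positive cells of its day and not for the culture. With 1 plate per group, no test between groups was possible, and the values below describe these plates.

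A ribosome joins a small subunit, which reads the mRNA, to a large subunit, which forms the peptide bond, and the proteins are needed in like amounts. Most ribosomal protein genes are transcribed at a high rate in every cell, and many of their mRNAs begin with a C followed by a run of pyrimidines, the 5′ terminal oligopyrimidine (TOP) tract, through which the kinase mTOR governs their translation. Growing cells, such as pluripotent stem cells, invest much of their transcription in ribosome production. A handful of members have paralogs, several of which stand in for X-linked genes in the male germ line of the mouse.

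To show what the members share at their starts, RefSeq promoter windows (build GRCm38.p6) were searched; 68 of the 92 members had one. A tract of C and at least 4 further C or T began exactly at the annotated start in 15 members (22.1%), against 3.01% of all 27025 genes with a window. It began within 5 bases of the start in 31 members (45.6%), against 21.2% of all genes. The following windows cover 15 bases before and 15 bases from the start, on the gene's strand, 5′ to 3′. The capitals mark the pyrimidine tract where one began at the start, and otherwise the start base alone. The first 6 genes have a tract, and the remaining 8 are members whose levels are described below and that have none there.
Rpl15, chr14:18270972-18271001, minus strand: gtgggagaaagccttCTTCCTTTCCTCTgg
Rps10, chr17:27635230-27635259, minus strand: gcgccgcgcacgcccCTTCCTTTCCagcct
Rps18, chr17:33955651-33955680, minus strand: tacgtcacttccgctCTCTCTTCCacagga
Rplp2, chr7:141447636-141447665, plus strand: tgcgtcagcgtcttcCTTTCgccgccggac
Rpl38, chr11:114668565-114668594, plus strand: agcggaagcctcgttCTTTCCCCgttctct
Rps21, chr2:180257364-180257393, plus strand: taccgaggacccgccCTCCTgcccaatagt
Rpl4, chr9:64173372-64173401, plus strand: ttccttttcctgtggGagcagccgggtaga
Rpl26, chr11:68901551-68901580, plus strand: ctcgcggcaacttacAgaaccggaagtcgc
Rps4x, chrX:102189377-102189406, minus strand: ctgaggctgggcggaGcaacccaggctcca
Rpl39, chrX:37085208-37085237, minus strand: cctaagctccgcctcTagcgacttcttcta
Rpl10, chrX:74270801-74270830, plus strand: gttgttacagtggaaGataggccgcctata
Rpl10l, chr12:66284387-66284416, minus strand: tttggcctccattttGcggctggcggtggg
Rpl39l, chr16:10170213-10170242, plus strand: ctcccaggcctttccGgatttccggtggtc
Rpl7l1, chr17:46782642-46782671, minus strand: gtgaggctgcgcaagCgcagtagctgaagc

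Other short motifs were counted on both strands over the 250 bases before and 50 bases after the start. CCGGAAG, a motif bound by ETS factors, was present in 26 members (38.2%) against 9.93% of all genes, and AAGATGGCG, bound by YY1, in 4 members (5.88%) against 1.64%. The E-box CACGTG, a motif of MYC, was present in 6 members (8.82%) against 8.09% of all genes, and TATAAA in 8 members (11.8%) against 15.7%. These motifs are matches of letters in a window and not measured binding. A gene with several annotated starts was counted if any of them had the motif.

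The cells had a median depth of 583643 gene-assigned reads (range 15053 to 2098345), and 9 cells had fewer than 100000. Median genes per cell lay between 6479 and 7657 over the plates, and median mitochondrial shares between 2.23% and 3.81%. The plates went with their labels on marker genes: the summed mean of 7 fibroblast genes was 1895 reads per 100000 reads of a cell on day 0 and at most 37.2 elsewhere, and that of 7 pluripotency genes was 0.0295 on day 0, between 56.8 and 301 in the intermediates and 617 in iPSCs, with all 7 pluripotency genes at a mean of at least 1 in iPSCs. The sum of 6 epithelial genes was 592 to 827 in the intermediates, 92.8 in iPSCs and 0.416 on day 0. That of 7 macrophage genes was between 2.35 on day 0 and 61.9 on day 10. The highest single cell had a sum of 2258 on day 10, 1845 in day 12 Xi-Mus cells and 1550 in iPSCs, against a median over cells of at most 21.5 on any plate. Of these genes, Lyz2 averaged 12.97 on day 10, 9.59 in day 12 Xi-Mus cells and 15.1 in iPSCs, and Ptprc was at 0 on days 0 and 9 and in day 12 Xi-Cast cells. The part of such cells in the results was not tested. The library titles carried 2 prefixes, one for days 0 to 10 and the other for both day 12 plates and iPSCs, so in a comparison of iPSCs with day 0 or of day 12 with day 10 the prefix and the group cannot be told apart. Plates under the same prefix shared 0 index pairs.

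Ribosomal protein genes took up a smaller share of the reads in MEFs than in any later plate. The share per cell averaged 1.66% ± 0.629 on day 0 (SD over 86 cells), 2.38% ± 0.431 on day 8 (82 cells), 2.73% ± 0.893 on day 9 (83 cells), 2.40% ± 0.629 on day 10 (80 cells), 2.16% ± 0.710 in day 12 Xi-Cast cells (66 cells), 2.22% ± 0.866 in day 12 Xi-Mus cells (80 cells) and 2.64% ± 0.656 in iPSCs (90 cells). The share was therefore highest on day 9 and in iPSCs, with lower values on day 12 between them. To show how far a value varied within a plate, the cells were grouped into 8 sets by their first index. These sets are called plate rows here, an inferred name. They were numbered in alphabetical order of the index sequence, which is not a known position on the plate. The rows ranged between 2.47% and 3.04% in iPSCs and between 1.46% and 2.16% on day 0, with no overlap. Rows on day 8 (2.18% to 2.53%) also lay above those on day 0, whereas the rows of day 9 (2.36% to 3.37%), day 10 (1.69% to 2.64%) and day 12 (1.79% to 2.62% in Xi-Cast cells, 1.59% to 2.65% in Xi-Mus cells) overlapped each other. Summed over all cells, 2.55% of reads were on members in iPSCs (exact 95% binomial interval 2.547% to 2.555%) against 1.60% on day 0 (1.592% to 1.599%). Smart-seq2 reads carry no molecular identifiers, so such intervals cover counting error only. They are far narrower than the spread over plate rows.

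**Figure D1:**
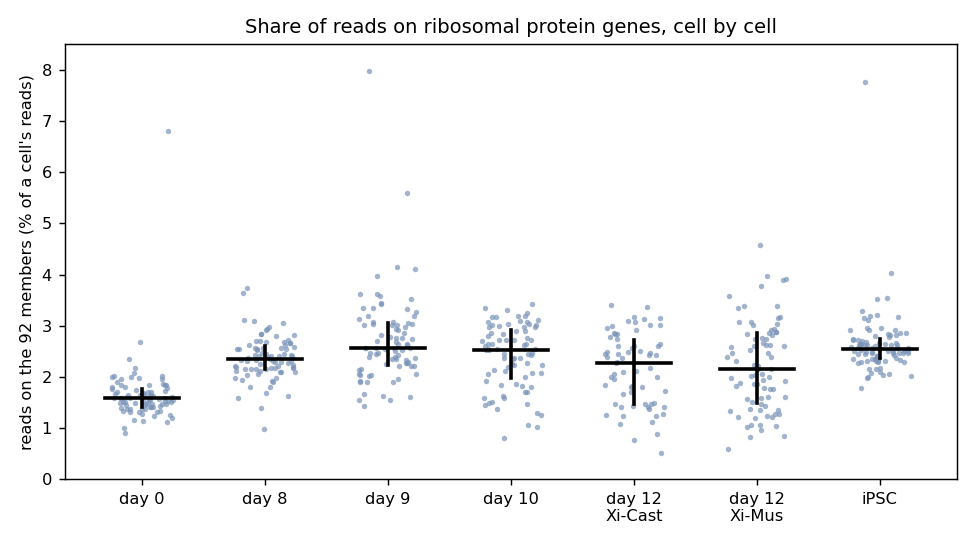
Share of a cell's reads that fell on the 92 members (vertical axis, %), 1 point per cell, for the 7 plates (horizontal axis). Horizontal bars give the median and vertical bars the quartiles; the median was 1.59% on day 0 and 2.55% in iPSCs, the quartiles lay farthest apart on day 12, and 3 cells lay above 6%.

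By the interquartile range, the cells of a plate differed most in this share on day 12, whereas the SD was largest on day 9. The interquartile range was 0.344 percentage points on day 0, 0.461 on day 8, 0.809 on day 9, 0.947 on day 10, 1.24 in day 12 Xi-Cast cells, 1.35 in day 12 Xi-Mus cells and 0.378 in iPSCs. It thus widened through the intermediates and was narrow at both ends. Single cells went from 0.515% to 3.40% among day 12 Xi-Cast cells and from 0.591% to 4.59% among day 12 Xi-Mus cells. Above 6% there were 3 cells: 1 cell on day 0 (6.80%, 85291 reads), 1 on day 9 (7.97%, 99746 reads) and 1 iPSC (7.76%, 77191 reads), all shallow. Without them the mean was 1.60% on day 0, 2.67% on day 9 and 2.58% in iPSCs. The 235 pseudogene rows with -ps symbols, which are not members, held between 0.0679% and 0.108% of reads.

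The subunits stayed in balance. Canonical large-subunit genes without the stalk held 1.09% of reads in iPSCs and 0.693% on day 0, and small-subunit genes held 1.09% in iPSCs and 0.698% on day 0. The ratio of large-subunit to small-subunit reads was 0.993 on day 0, 1.05 on day 8, 0.904 on day 9, 0.987 on day 10, 1.03 in day 12 Xi-Cast cells, 1.02 in day 12 Xi-Mus cells and 0.998 in iPSCs. Over all plates this ratio thus differed by less than the share itself. This did not hold for day 9 and day 8, where the ratio was 0.904 and 1.05 and the share 2.73% and 2.38%. These are shares of uniquely aligned reads and do not measure the amounts of the subunits.

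Single members spanned several orders of magnitude. Over the mean of the 7 plate means, 6 members had at least 100 reads per 100000 and 10 had less than 1. Among the most abundant were Rpl4, a large-subunit protein of the exit tunnel, and Rps3, a small-subunit protein at the mRNA entry. Rpl4 averaged 251 ± 54.7 reads per 100000 on day 0 (SD over cells), 438 ± 88.2 on day 8, 394 ± 101 on day 9, 380 ± 101 on day 10, 365 ± 117 in day 12 Xi-Cast cells, 389 ± 146 in day 12 Xi-Mus cells and 389 ± 73.6 in iPSCs. Rpl4 was thus lowest in MEFs and lay between 365 and 438 from day 8 on. Rps3 averaged 134 on day 0, 222 on day 8, 241 on day 9, 218 on day 10, 169 in day 12 Xi-Cast cells, 187 in day 12 Xi-Mus cells and 210 in iPSCs. Rps3 was highest on day 9 and lower on day 12 than in iPSCs. Per kilobase of annotated exon, the mean level was 185 reads per 100000 for Rpl4, 112 for the stalk protein Rplp1 and 95.5 for Rpl8 of the large subunit. Reads were found in all 567 cells for 40 members and in at least 90% of cells for 74.

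The level of a member went in part with how much of its sequence is unique. Only uniquely aligned reads were counted, and ribosomal protein genes have many processed pseudogenes. Of the 50-base windows of a canonical gene's annotated transcripts, between 16% and 100% (median 75.6%) were held by no other annotated gene. The 7 canonical genes with under 50% of such windows had a median level of 2.69 reads per 100000, and 1 of them reached a mean of 10. The 70 genes with at least 50% had a median level of 11, and 39 of them reached 10. Across the 77 canonical genes, which share depth and cells, Spearman's rho of uniqueness with level was 0.44. Canonical members below 1 read per 100000 were Rpl24, Rpl23a, Rpl17, Rpl29 and Rps27. For example, Rpl24 had 0.0959 reads per 100000 per kilobase. Levels therefore rank members as counted, and the comparisons below are of the same gene between plates.

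**Figure D2:**
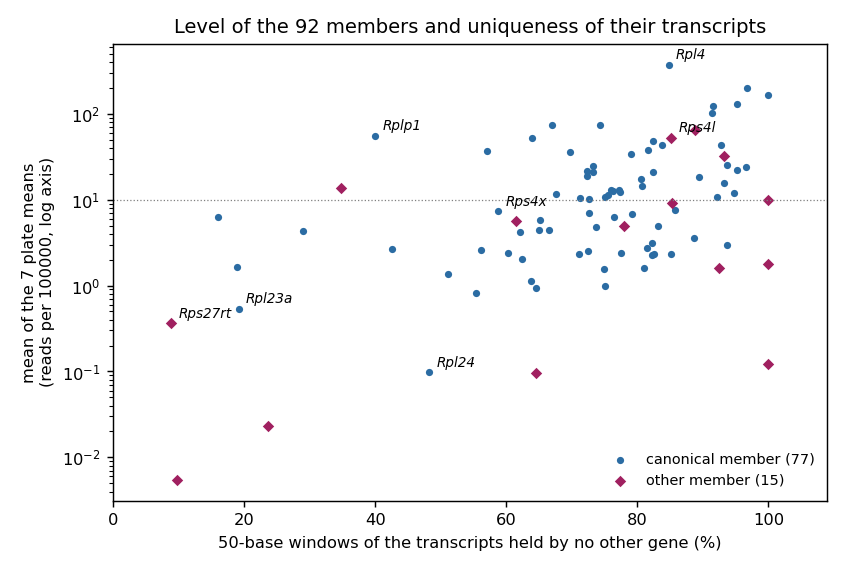
Mean of the 7 plate means of each of the 92 members (vertical axis, reads per 100000, log scale) against the share of 50-base transcript windows that no other gene holds (horizontal axis, %). Circles are the 77 canonical members and diamonds the other 15, and the dotted line marks the mean of 10 needed for the plate comparisons; only 1 of the 7 canonical genes under 50% lay above it.

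For the comparisons of plates, 44 members passed a filter of at least 10 reads per 100000 on the mean of the 7 plate means, among 2351 genes that did. A further 38 members averaged 1 to 10 and 10 averaged below 1. Rps19bp1 (9.82), Rpl22l1 (9.13) and Rpl37 (7.66) lay just outside the filter, and Rpl38 (10.3), Rpl30 (10.5) and Rpl15 (10.6) just inside. Ratios are log2 of the plate means with 1 read per 100000 added, and a gene was counted as higher or lower when the ratio passed 1.5-fold. These ratios understate the difference for low genes.

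In iPSCs against day 0, the question was how the fully reprogrammed state differed from the fibroblast. The 44 members had a median log2 ratio of 0.59, against 0.41 over all 2351 genes. At least 1.5-fold higher in iPSCs were 23 members, against 43.4% of all genes, and 0 were at least 1.5-fold lower, against 23.9% of all genes. The ratios went from -0.54 to 4.26, with 42 of 44 members above 0 (62.4% of all genes) and 30 of 44 above the median of all genes. The median was above 0 in 8 of 8 plate rows (0.06 to 0.89) and above that of all genes in 6 of 8 (differences of -0.29 to 0.47). Over the whole plates it was 0.60 for the 20 large-subunit genes, 0.60 for the 17 small-subunit genes and 0.35 for the 3 stalk genes that passed. The 38 members of lower level had a median of 0.79, with 27 higher (71.1%) and 1 lower, Rpl22l1. Over all 7174 genes at that level, the median was 0.08, 30.9% were higher and 27.4% lower. Because the typical gene was higher in iPSCs than on day 0 on this scale, scaling each plate to the median gene moved the median of all genes by -0.42, in the comparison of day 8 with day 0 as well. On that scale 4 members were higher in iPSCs (Rpl26, Rpl39, Rpl7l1 and Rps4l, against 29.99% of all genes) and 1, Rpl13a, was lower (against 33.7%). The members' median was then 0.14, so relative to the typical gene they were close to level.

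A few members departed from the rest. Rpl26, a large-subunit protein near the tunnel exit that is known to bind p53 mRNA, averaged 25.1 ± 8.06 reads per 100000 in iPSCs against 7.64 ± 3.72 on day 0, a log2 ratio of 1.59. Its rows reached from 23 to 29 in iPSCs and from 5.69 to 10.4 on day 0, so they did not overlap, and the day 8 to day 12 plates stayed between 10.9 and 13.1. Rpl26 was thus high in iPSCs alone among the 7 plates. Rpl13a, which in human cells also joins a complex that silences inflammatory mRNAs, was the only one of the 40 canonical members that passed with a ratio below 0. It averaged 10.1 ± 4.50 in iPSCs against 15.1 ± 8.0 on day 0 (-0.54), and its rows overlapped (7.74 to 13.1 in iPSCs, 10.5 to 19.1 on day 0). Small ratios were also found for Rps20 (0.10), Rpl41, the smallest ribosomal protein (0.11), and Rps19, a gene mutated in Diamond-Blackfan anaemia (0.13).

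**Figure D3:**
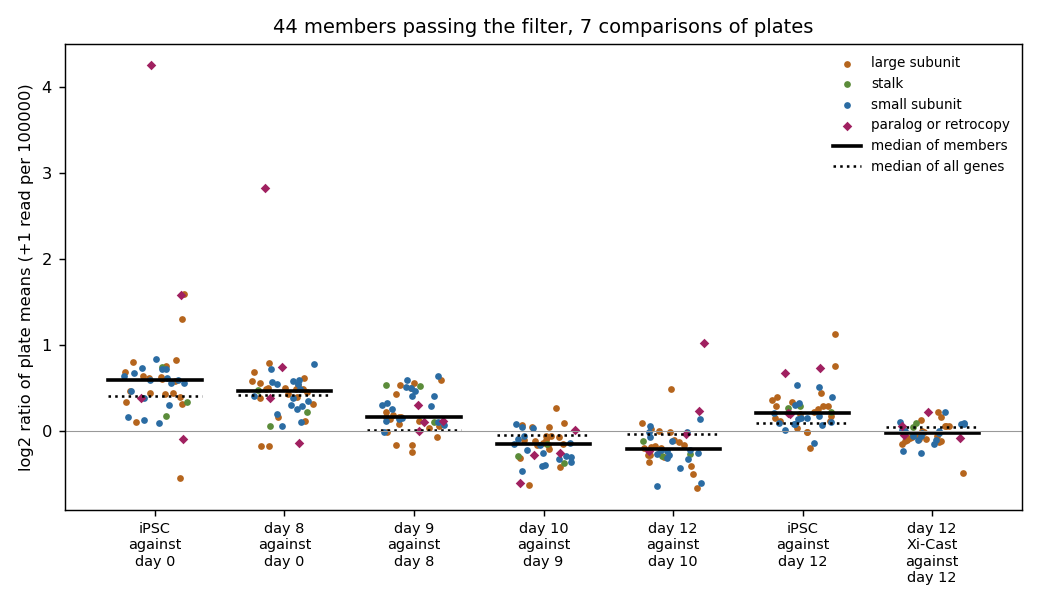
Log2 ratio of plate means (vertical axis, 1 read per 100000 added) of the 44 members that passed the filter, 1 point per gene, in the 7 comparisons (horizontal axis). Solid bars give the median of the members and dotted bars that of all 2351 genes; the members' median was 0.59 in iPSCs against day 0 and -0.20 in day 12 against day 10, and Rps4l at 4.26 and 2.84 stands above all others in the first 2 comparisons. Day 12 without a suffix is Xi-Mus.

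On reads per 100000, much of the distance from MEFs was present on day 8. The members had a median log2 ratio of 0.47 in day 8 against day 0, with 0.42 over all genes and 24 of 44 members above that. Of the members, 9 were at least 1.5-fold higher on day 8 (Rpl18, Rpl22, Rpl4, Rpl7l1, Rpl8, Rps18, Rps3, Rps4l and Rps7), against 42.5% of all genes, and 0 were lower, against 15.3%. After scaling to the median gene the members' median was 0.040 in day 8 against day 0, against 0.14 in iPSCs against day 0, so on that scale less of the distance was present. There only Rps4l was higher (against 26.2% of all genes) and Rpl13a and Rpl41 were lower (against 25.4%). Rps18, which sits at the head of the small subunit, averaged 13.7 on day 8 against 7.56 on day 0 (0.78). Rpl41 averaged 41 ± 12.0 on day 8 against 46 ± 33.8 on day 0 (-0.16), and the stalk protein Rplp1 averaged 52.4 on day 8 against 50.0 on day 0 (0.07). Row medians were above 0 in 8 of 8 cases (0.14 to 0.70) and above that of all genes in 5 of 8 (differences of -0.27 to 0.27).

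From day 8 to day 12 the successive plates differed by small and opposite amounts. In day 9 against day 8 the median was 0.17 (0.02 over all genes), and 37 of 44 members lay above the median of all genes. Rpl41 of the large subunit and Rps10 and Rps21 of the small subunit were higher (3 members, against 5.87% of all genes), and 0 were lower, against 4.30%. Rps21 averaged 25.4 ± 17.1 on day 9 against 15.9 ± 5.98 on day 8 (0.65), and Rps10, which is ubiquitinated when ribosomes collide, averaged 17.2 ± 10.1 on day 9 against 11 ± 3.37 on day 8 (0.60). Without the 3 cells above 6%, 1 of which was on the day 9 plate, 0 members were higher. By subunit, the median was 0.16 for the large subunit, 0.31 for the small subunit and 0.53 for the stalk. Rows ranged between -0.05 and 0.60, with 6 of 8 above 0.

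In day 10 against day 9 the sign turned: the median was -0.15 (-0.04 over all genes), 9 of 44 members lay above the median of all genes, and 2 members, Rpl15 and Rps4l, were lower (against 4.25% of all genes), with 0 higher (against 4.72%). Rpl15, which is needed to build the large subunit, averaged 8.02 ± 4.61 on day 10 against 12.9 ± 6.05 on day 9 (-0.62). The largest positive ratio was 0.27, for the X-linked Rpl39. Row medians went from -0.73 to 0.20, and 3 of 8 were above 0.

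In day 12 Xi-Mus against day 10 the median was -0.20 (-0.03 over all genes), and 0 of 8 rows were above 0 (-0.65 to -0.07), with 1 of 8 above the median of all genes. Rpl32, Rps24 and Rps25 were lower (3 members, against 9.49% of all genes) and Rps4l was higher (1 member, against 7.70%). Rpl32, of the large subunit, averaged 60.5 ± 27.2 in day 12 Xi-Mus cells against 96.3 ± 28.8 on day 10 (-0.66). Rps25, which is required for translation from several viral entry sites, averaged 9.40 in day 12 Xi-Mus cells against 15.1 on day 10 (-0.63), and Rps24, another Diamond-Blackfan gene, 17.3 against 26.7 (-0.59). This step crosses the library prefixes. Within the second prefix, iPSCs against day 12 Xi-Mus had a median of 0.22 (0.09 over all genes), with 34 of 44 members above the median of all genes and 6 of 8 rows above 0 (-0.06 to 0.67), while 5 of 8 lay above the median of all genes. There 4 members were higher, Rpl26, Rpl39, Rpl7l1 and Rps4l, against 19.2% of all genes, and 0 were lower, against 23.4%. The same 4 passed after scaling to the median gene.

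No member above the filter differed by 1.5-fold between the day 12 plates. In day 12 Xi-Cast against day 12 Xi-Mus the median was -0.02 (0.05 over all genes), 14 of 44 members lay above the median of all genes, and 0 members were higher or lower, against 4.51% of all genes in each direction. Among the farthest were Rpl39 (-0.49) and Rps14, a gene of the 5q- syndrome in humans (-0.25), on the lower side, and Rpl38, which in the mouse governs translation of Hox mRNAs, Rps25 and Rpl7l1 (0.23 each) on the upper. Rpl27, below the filter, had 8.29 reads per 100000 in day 12 Xi-Cast cells and 4.51 in day 12 Xi-Mus cells (0.75). Row medians lay on both sides of 0 (-0.28 to 0.57).

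The ratios were also set out by the pyrimidine tract, without a test. Of the members that passed the filter and had a RefSeq window, 17 had a tract within 5 bases of the start and 15 had none. The median in iPSCs against day 0 was 0.47 in those with a tract and 0.60 in those without, and in day 8 against day 0 it was 0.32 and 0.49. The order was the other way round in day 9 against day 8, at 0.19 with a tract and 0.12 without, and the medians were nearly equal in iPSCs against day 12 Xi-Mus (0.21 and 0.22) and in day 12 Xi-Mus against day 10 (-0.19 in both), so no direction held over the comparisons. In Rpl26 and Rpl4 no such tract began within 5 bases of the annotated start, whereas in Rpl15, Rps10, Rps18 and Rps21 one did. The Rpl4 window shown above has a run of C and T farther upstream. The starts used in these cells were not measured, so the sorting holds for annotated starts only.

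The canonical genes lay on 19 chromosomes, and 4 members were on the X: Rps4x of the small subunit, and Rpl10, Rpl36a and Rpl39 of the large subunit. These are of interest because 1 of the X chromosomes is silent in the starting MEFs and is reactivated on the way to iPSCs. Rps4x (chrX:102184941-102189394, GRCm38) averaged 2.58 ± 1.25 reads per 100000 on day 0, 4.61 ± 3.39 on day 8, 4.14 ± 3.64 on day 9, 4.46 ± 3.39 on day 10, 10.7 ± 5.67 in day 12 Xi-Cast cells, 8.58 ± 8.61 in day 12 Xi-Mus cells and 16.7 ± 4.44 in iPSCs. The log2 ratio of iPSCs to day 0 was 2.30, and the plate rows (15.5 to 17.9 in iPSCs, 2.07 to 3.0 on day 0) were far apart. Its median over cells was 9.67 in day 12 Xi-Cast cells and 3.83 in day 12 Xi-Mus cells, so on day 12 the Xi-Mus mean was carried by a minority of high cells. Rpl39 (chrX:37082520-37085402), the only X-linked member above the filter and a protein of the exit tunnel, averaged 10.6 ± 6.06 on day 0, 14.7 ± 7.5 on day 8, 13 ± 7.33 on day 9, 15.9 ± 7.21 on day 10, 11.1 ± 7.49 in day 12 Xi-Cast cells, 16 ± 9.83 in day 12 Xi-Mus cells and 27.7 ± 13.5 in iPSCs (1.31 in iPSCs against day 0). Its rows in iPSCs (23.1 to 35.4) lay above those of every other plate, the highest of which was 21.9 in day 12 Xi-Mus cells.

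Rpl10 and Rpl36a were low throughout. Rpl10 (chrX:74270812-74273135), which joins the large subunit late and contacts the tRNA, averaged 7.11 ± 4.92 in iPSCs against 1.88 ± 1.99 on day 0 (1.49). Its rows (5.58 to 9.36 in iPSCs, 1.02 to 2.59 on day 0) did not overlap, but those of day 10 reached 10.5. Rpl36a (chrX:134585654-134588062) averaged 4.66 ± 2.71 in iPSCs against 1.22 ± 1.24 on day 0 (1.35). Its rows (2.89 to 5.83 in iPSCs, 0.573 to 2.10 on day 0) did not overlap either, but those of day 12 Xi-Cast cells reached 5.68. In iPSCs against day 0, all 4 X-linked members thus had ratios above 0.59, the median of the 44 members that passed the filter. Of the X-linked members only Rpl39 passed it. Rps4x, Rpl10 and Rpl36a also lay above 0.79, the median of the 38 members with a mean of 1 to 10. The 83 X-linked genes that passed the filter had a median of 0.79, against 0.40 for 2256 genes on other chromosomes, with 12 genes not placed. In day 8 against day 0 the X-linked members had ratios of 0.43 to 0.76, although the 83 X-linked genes had a median of only 0.06 (0.43 elsewhere). In iPSCs against day 12 Xi-Mus the 4 members had 0.76 to 0.88, and the X-linked genes a median of 0.62 (0.07 elsewhere). Reads from the Mus and Cast alleles were not separated in the table used, so these are totals over both X chromosomes. Because unique windows differed (93.2% for Rpl39, 58.8% for Rps4x, 66.5% for Rpl10, 77.5% for Rpl36a), levels of these genes were not ranked.

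**Figure D4:**
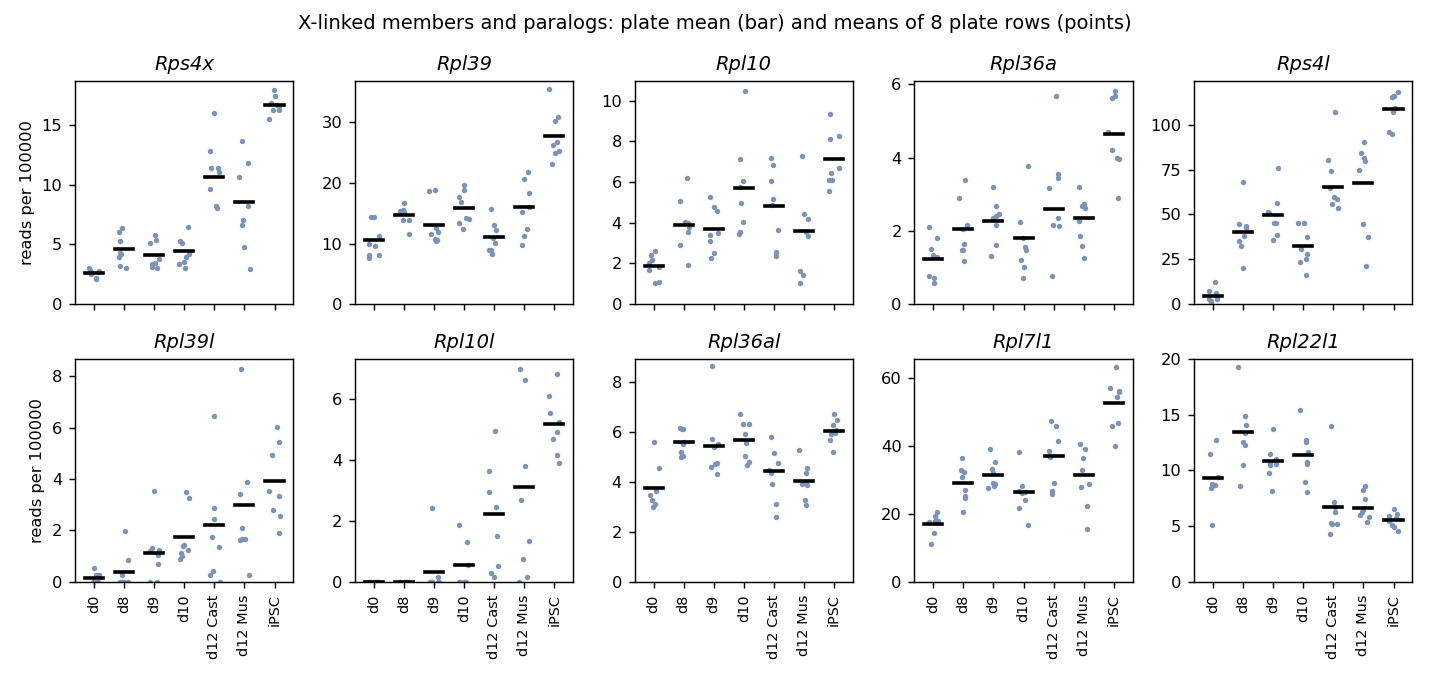
Reads per 100000 (vertical axes, own scale in each panel) of the 4 X-linked members and of 6 paralogs on the 7 plates (horizontal axes). Bars are plate means and points the means of the 8 plate rows; Rps4l was at 4.74 on day 0 and 109 in iPSCs, Rpl10l was 0 on days 0 and 8, and Rpl22l1 was lowest in iPSCs at 5.53.

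The largest ratio of any member belonged to Rps4l, a copy of Rps4x on an autosome (chr6:148354656-148355598), which GENCODE annotates as a transcribed processed pseudogene. It averaged 4.74 ± 11.6 reads per 100000 on day 0, 39.99 ± 33.6 on day 8, 49.6 ± 40.4 on day 9, 32.5 ± 33.1 on day 10, 65.4 ± 50.2 in day 12 Xi-Cast cells, 67.5 ± 59 in day 12 Xi-Mus cells and 109 ± 32.1 in iPSCs. The log2 ratio was 4.26 in iPSCs against day 0 and 2.84 in day 8 against day 0. Reads were found in 90 of 90 iPSCs and in 39 of 86 cells on day 0 (45.3%), and on day 0 a single cell held 23.9% of the plate's summed level. Plate rows went from 95 to 118 in iPSCs and from 1.35 to 12.2 on day 0. Rps4l was therefore without reads in most MEFs and found in every iPSC. Of its 50-base windows, 85.1% were held by no other gene and the rest only by Rps4l-ps, so none was shared with Rps4x. It lies within Tmtc1 on the opposite strand without touching an exon. The libraries were not stranded, but Tmtc1 itself averaged at most 0.369 reads per 100000 on any plate.

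Of the reads on Rps4l and Rps4x together, Rps4l held 59.8% on day 0, 89.5% on day 8, 92% on day 9, 88.1% on day 10, 85.9% in day 12 Xi-Cast cells, 88.6% in day 12 Xi-Mus cells and 86.4% in iPSCs. As counted, most reads of the pair were thus on the copy annotated as a pseudogene, also where Rps4x was high. These shares are not corrected for gene length or for the windows that could not be counted.

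The germ line paralogs of X-linked genes were found mainly in the later plates. Rpl10l (chr12:66283379-66284401), an intronless copy of Rpl10 that male germ cells of the mouse need for meiosis, had 0 reads on day 0 in 86 cells, which allows a share of up to 3.49% of cells with reads and sets no limit on cells that express the gene, and 0 reads on day 8 in 82 cells. It averaged 0.312 reads per 100000 on day 9, 0.539 on day 10, 2.23 in day 12 Xi-Cast cells, 3.1 in day 12 Xi-Mus cells and 5.18 in iPSCs. Cells with reads numbered 2 on day 9, 4 on day 10, 15 in day 12 Xi-Cast cells, 20 in day 12 Xi-Mus cells and 69 of 90 iPSCs, and 94% of the day 9 level came from 1 cell. Rpl10l held 42% of the reads of the Rpl10 pair in iPSCs (exact 95% binomial interval 40.9% to 43.2%), against 0% on day 0 (upper limit 0.404%). Its windows were 92.4% unique and the remainder were shared with the annotated gene Gm14460 alone, not with Rpl10. Of the windows of Rpl10, 66.5% were unique. The shares of this and the following pairs are not corrected for gene length or for windows that could not be counted. The interval covers counting error only.

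Rpl39l (chr16:10170226-10174911), the counterpart of Rpl39 known from sperm-forming cells of the mouse, followed a like course. It averaged 0.136 ± 0.678 on day 0, 0.374 ± 1.77 on day 8, 1.12 ± 3.65 on day 9, 1.74 ± 4.76 on day 10, 2.21 ± 5.59 in day 12 Xi-Cast cells, 3.0 ± 7.77 in day 12 Xi-Mus cells and 3.90 ± 5.65 in iPSCs, with reads in 4 cells on day 0 and in 57 iPSCs. All of its windows were unique. The share of the Rpl39 pair was 12.7% in iPSCs against 1.27% on day 0, and 20.7% in day 12 Xi-Cast cells, where Rpl39 was lower than in iPSCs. Rpl36al (chr12:69182731-69184083), a widely used counterpart of Rpl36a, was flatter at 6.02 in iPSCs against 3.76 on day 0 (0.56), and its share of the pair was 56.5% in iPSCs against 74.1% on day 0.

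Other paralogs moved apart. Rpl7l1 (chr17:46773907-46782672), related to Rpl7 and known as a nucleolar protein, averaged 16.9 ± 9.81 on day 0, 29.1 ± 15.6 on day 8, 31.5 ± 14.9 on day 9, 26.4 ± 15.5 on day 10, 36.9 ± 21 in day 12 Xi-Cast cells, 31.4 ± 20.7 in day 12 Xi-Mus cells and 52.8 ± 20.8 in iPSCs. Its ratio in iPSCs against day 0 equalled that of Rpl26 at 1.59, and its rows (39.9 to 63.2 in iPSCs, 11.1 to 20.5 on day 0) did not overlap. Rpl22l1 (chr3:28805436-28807424), the paralog of the RNA-binding protein Rpl22, went the other way at 5.53 ± 3.59 in iPSCs against 9.32 ± 6.40 on day 0 (-0.66). It had been highest on day 8 (13.4), and its rows overlapped in part (4.51 to 6.56 in iPSCs, 5.10 to 12.7 on day 0). As Rpl22 was 25.1 in iPSCs against 16.3 on day 0, the share of Rpl22l1 in the pair was 17.5% in iPSCs against 37.4% on day 0.

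Rps27l, a target gene of p53, was level over the plates, between 57.8 and 71.6 reads per 100000 (67.2 in iPSCs against 71.6 on day 0, -0.09). It held 98.0% to 99.1% of the reads of its pair over the plates. The retrogene Rps27rt, which shares 91.1% of its own windows with Rps27, averaged at most 0.526, and Rpl3l, the striated muscle form of Rpl3, at most 0.214. Rps19bp1 averaged 11.9 in iPSCs against 7.12 on day 0 (0.66). Of the retrocopies, Rps3a3 averaged 14.8 in iPSCs against 11.1 on day 0, lies within Pde4d on the same strand (Pde4d averaged 4.59 to 10.1 over the plates) and had only 34.9% unique windows. Rpl37rt averaged 6.5 in iPSCs against 3.89 on day 0, and Rpl32l, Rpl6l and Rps3a2 stayed below 0.2 on every plate.

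Within a plate the members varied together. Spearman's rho of a member with the sum of the other members, across cells, had a median over the 44 members of 0.57 on day 0, 0.56 on day 8, 0.71 on day 9, 0.71 on day 10, 0.79 in day 12 Xi-Cast cells, 0.85 in day 12 Xi-Mus cells and 0.57 in iPSCs. Rpl7l1 had the lowest rho on 5 plates, down to -0.24 in iPSCs, Rps4l on day 0 (-0.10) and Rpl15 in day 12 Xi-Mus cells (0.41). The coefficient of variation over cells had a median of 0.419 over the members in iPSCs, against 0.588 over all genes that passed, and of 0.574 against 0.719 on day 0. Rpl4 was the steadiest member on 6 plates (0.189 to 0.375) and Rplp0, the base of the stalk, in day 12 Xi-Cast cells. Rps4l on day 0 was the most variable (2.44). These correlations are across cells of 1 plate, which share library preparation and scaling, and are given as descriptions.

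At day 12 cells with more ribosomal protein reads tended to have more pluripotency transcripts. The rho of the members' share with the summed level of the 7 pluripotency genes (Nanog, Zfp42, Dppa5a, Dppa4, Esrrb, Tdgf1 and Utf1) was 0.10 on day 0, 0.21 on day 8, 0.29 on day 9, 0.50 on day 10, 0.75 in day 12 Xi-Cast cells (66 cells), 0.83 in day 12 Xi-Mus cells (80 cells) and 0.41 in iPSCs. It was 0.83 in the first and 0.80 in the last 4 plate rows of the Xi-Mus plate, and 0.52 and 0.86 in those of the Xi-Cast plate. With the sum of the 6 epithelial genes the rho was -0.76 in day 12 Xi-Cast cells and -0.68 in day 12 Xi-Mus cells. With depth it was -0.23 in day 12 Xi-Cast cells and 0.14 in day 12 Xi-Mus cells, and with the mitochondrial share -0.01 and 0.05 on those plates. On other plates the rho of the share with depth was nearer in size to that with the pluripotency sum, at -0.35 on day 9 and -0.34 in iPSCs, and that with the number of genes was -0.41 on day 9.

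**Figure D5:**
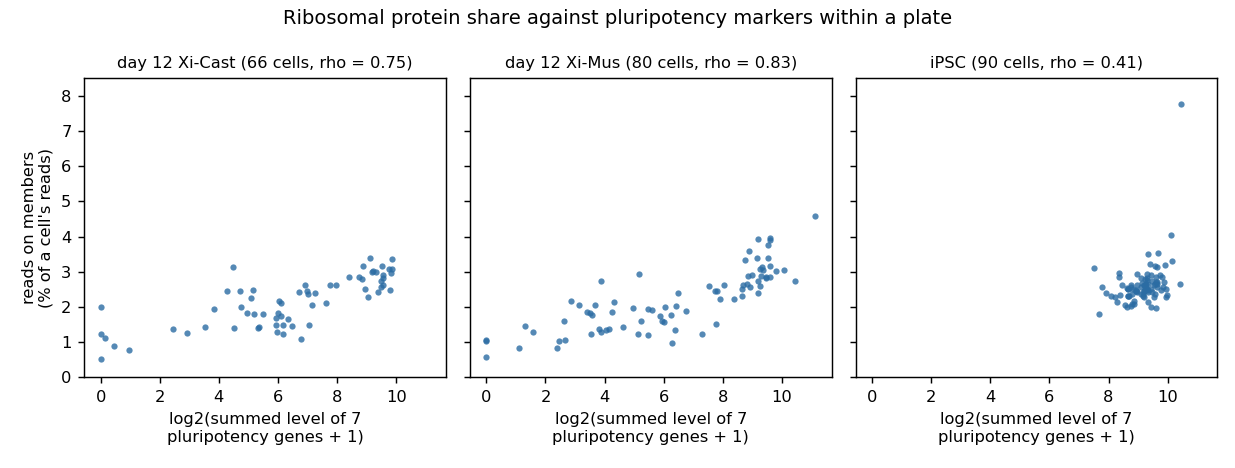
Share of reads on the 92 members (vertical axis, %) against log2 of the summed level of 7 pluripotency genes plus 1 (horizontal axis), 1 point per cell, for day 12 Xi-Cast, day 12 Xi-Mus and iPSC plates. The points run along a rising band on day 12 (rho 0.75 in Xi-Cast cells, 0.83 in Xi-Mus cells) and less so in iPSCs (rho 0.41).

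The relation was also seen in single members, which varied together within a plate and so are not independent of each other. In day 12 Xi-Mus cells, 44 of 44 members had a positive rho with the pluripotency sum (median 0.70, from 0.45 for Rpl15 to 0.87), and 97.7% of the members exceeded 0.5, against 16% of all genes. In day 12 Xi-Cast cells 44 of 44 were positive (median 0.58, from 0.32 for Rps27l to 0.76), and 77.3% exceeded 0.5, against 10.1% of all genes. Among members below the filter, Rps4x had 0.62 in Xi-Cast and 0.77 in Xi-Mus cells, whereas Rpl22l1 had 0.22 on both plates. Rps4l had 0.68 in Xi-Cast and 0.79 in Xi-Mus cells.

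Genes that work beside the ribosome were set next to the members. Of 28 ribosome biogenesis genes, which process ribosomal RNA and assemble subunits, 20 passed the filter, and all 20 were at least 1.5-fold higher in iPSCs than on day 0 (median log2 ratio 1.62, against 0.59 for the members). Among them Rrp1b (2.71) and Dkc1 (2.62) were highest and Ltv1 (1.09) and Bop1 (1.03) lowest. At day 8 against day 0, 17 of the 20 were higher (median 1.13), against 42.5% of all genes. In iPSCs against day 12 Xi-Mus 19 of 20 were higher (median 0.77), against 19.2% of all genes. Of 18 genes of a wider translation list, which holds elongation and initiation factors together with proteins that bind RNA, nascent chains or ribosomes and the nucleolar chaperone Npm1, 16 passed, with a median of 0.63 and 10 higher in iPSCs than on day 0. Npm1 (1.42) was highest and Eef1a1, the elongation factor that delivers tRNA (-0.29), lowest. All 5 of the RNA polymerase I genes that passed, of 11, were higher (median 1.13). Of all genes, 43.4% were higher in iPSCs than on day 0. The lists were not scaled to the median gene. In iPSCs against day 0 the ratios of the genes that build ribosomes thus lay above those of the members by their medians, and the median of the translation list lay near that of the members. Within the plates, the rho of the members' share with the summed translation list was 0.84 in day 12 Xi-Cast cells and 0.88 in day 12 Xi-Mus cells. It was 0.75 on day 0, 0.63 on day 8, 0.80 on day 9, 0.84 on day 10 and only 0.39 in iPSCs. With the summed biogenesis list the rho was 0.62 in day 12 Xi-Cast cells and 0.72 in day 12 Xi-Mus cells. On the other plates the rho with that list was lower, from -0.04 in iPSCs to 0.34 on day 8.

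The genes outside the rule whose plate means most resembled the summed members over the 7 plates were Snrpd1 of the spliceosome (Pearson's r 0.99), Ndufs7 of the respiratory chain (0.97), Naca, which binds nascent chains at the ribosome (0.97), Diablo (0.96) and Prim1 (0.95). Snrpd1 averaged 24.3 reads per 100000 in iPSCs against 8.83 on day 0. The ribosomal fusion gene Fau, outside the symbol rule, averaged 7.94 reads per 100000 in iPSCs against 3.98 on day 0.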

How the data were processed

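According to the methods, single-end reads were aligned to mm10 by the authors (STAR 2.5.3a), unique alignments were counted per gene (featureCounts), and Seurat was used for filtering, scaling and the log. The deposited values are the natural log of 1 plus reads per 10000 reads of the cell: the methods state 100000, but the antilog minus 1 summed to 10000 in every column. Values were converted to reads per 100000. All 3980842 values above 0 were whole reads within 0.01, which gave each cell's depth. Of 672 labelled cells the table held 567; all were used, and doublets were not called. Strand was not used.

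The ratio of 2 plates was taken on the log2 scale from means over cells, with 1 added. Genes needed a mean of 10 over the 7 plate means and were counted past 1.5-fold. There were no replicates and no test. Members named were the paralogs, X-linked and non-ribosomal members, the 3 highest, and those farthest from the members' median. Other members were named after their values were seen. Some results that this rule names are not reported here. Positions and 50-base windows came from GENCODE vM21. The members and lists were chosen with earlier results of these data known. Scripts used Python 3.11, pandas 2.3.3 and scipy 1.17.1 and were tested on simulated data. Alternatives were a fold of 2, a filter at 1 or none, a pseudocount of 0.1, cells of at least 100000 reads, medians or summed reads in place of means, mitochondrial reads left out, scaling to the median gene, each set of 4 plate rows and canonical members alone.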

Additional observations from a re-analysis of the deposited data

How the results depend on the processing

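No paired analysis was possible because each group was 1 plate and the numbers within a group name single cells, not cultures or animals. Of 77 medians recomputed, 75 moved by less than 1 SD over the plate rows and 2 moved more, both on scaling each plate to the median gene: 0.14 in iPSCs against day 0 and 0.040 in day 8 against day 0. All 42 recomputed shares of reads moved by less than that spread. Scaling to the median gene was not among the settings used for the shares. Its factors were 0.774 on day 0 and 1.01 to 1.08 on the other plates. The low value on day 0 therefore holds for shares of reads only. Counts of members were less stable. The count of members higher in iPSCs than at day 0 was 4 at a fold of 2, against 715 of all 2351 genes. After scaling 4 were higher, against 29.99% of all genes, and 1 was lower, against 33.7%. The filter at 1 adds the 38 members with a mean of 1 to 10 to the 44. With it 50 were higher and 1 was lower. Of all 7174 genes with a mean of 1 to 10, 30.9% were higher and 27.4% lower. The brackets below give values over all genes, for the filter at 1 over those 7174. The latter leave out the 2351 genes with a mean of at least 10, whereas the member counts with that filter include the 44. The 2 are therefore not over like sets. For day 8 against day 0, the members higher were 1 at a fold of 2 (613 of 2351), 15 with the filter at 1 (34.5%) and 1 after scaling (26.2%). Those lower were 1 with the filter at 1 (19.4%) and 2 after scaling (25.4%). For day 9 against day 8, those higher were 0 at a fold of 2 (23 of 2351), 6 with the filter at 1 (7.36%) and 1 after scaling (4.89%). There were 0 without the 3 cells above 6%, an alternative chosen after seeing the data. For day 10 against day 9, those lower were 0 at a fold of 2 (8 of 2351) and 5 with the filter at 1 (4.32%). They were 0 after scaling (2.72%) and 1 without the 3 cells. For day 12 Xi-Mus against day 10, those higher were 3 with the filter at 1 (8.68%) and those lower 0 at a fold of 2 (60 of 2351). For iPSCs against day 12 Xi-Mus, those higher were 1 at a fold of 2 (89 of 2351) and 14 with the filter at 1 (10.6%). For day 12 Xi-Cast against day 12 Xi-Mus 1 was higher with the filter at 1 (5.99%). A filter at 1 tests more members and a fold of 2 is stricter by construction; for scaling and the 3 cells the cause was not tested. No count has a replicate check, and the levels of members that share windows with other genes may be too low, since only unique alignments were counted.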

Other observations

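Proliferation genes had larger ratios than the members against day 0. All 7 proliferation genes that passed the filter, of 8, were at least 1.5-fold higher in iPSCs than at day 0 (median log2 ratio 2.93) and at day 8 than at day 0 (1.84), whereas the median of the members was 0.59 and 0.47 in those comparisons. Of all genes, 43.4% and 42.5% were higher there. In day 10 against day 9 the proliferation genes had a median of -0.54, in day 12 Xi-Mus against day 10 of 0.69, and the members -0.15 and -0.20. In day 9 against day 8 the medians were 0.11 for the proliferation genes and 0.17 for the members. Across the cells of a plate, the rho of the members' share with the summed proliferation genes was 0.39 in day 12 Xi-Cast cells, 0.66 in day 12 Xi-Mus cells and -0.04 in iPSCs. Of the MYC family, which activates many ribosomal genes, Mycn was higher (log2 ratio 5.65) and Myc lower (-2.34) in iPSCs than at day 0, with reads of the Myc transgene not separated from the endogenous gene. Of 18 members mutated in Diamond-Blackfan anaemia, 8 passed the filter and 4 were higher in iPSCs than at day 0 (median 0.58), near the 43.4% of all genes (median 0.41).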
